A study of Mus musculus with 20 samples.

Results

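The acyl-CoA thioesterases described here are the 10 genes Acot1, Acot2, Acot3, Acot4, Acot7, Acot8, Acot9, Acot11, Acot12 and Acot13, chosen by symbol and not by their values. They are 10 of the 22298 genes listed for each liver, and all 10 were among the 12342 genes that passed the filter on low counts and were tested. The data are bulk RNA sequencing of whole liver from 20 male Lepr db/db mice, a model of obesity and type 2 diabetes that lacks the signalling leptin receptor. By the paper's methods, every mouse was injected with AAV8 by the tail vein at 5 weeks of age. The mice were gavaged once daily for 4 weeks and sampled after a 6 h fast. There were 4 groups of 5 mice. Vec mice (labelled only as control) carried, by the paper's methods, the AAV8 vector with a non-targeting shRNA and received the vehicle, sodium carboxymethyl cellulose. Vec+BBR mice (labelled only as benzbromarone) carried the same vector and received benzbromarone (BBR), a uricosuric drug used for gout, at 25 mg per kg. shRNA mice carried AAV8 with shRNAs against Pparg, the gene of the lipogenic nuclear receptor PPARγ (labelled only as PPAR knockdown), and received the vehicle, and shRNA+BBR mice carried that vector and received BBR at 25 mg per kg. The methods name no promoter that would limit the vector to hepatocytes. No library was labelled as coming from lean or uninjected mice, and 1 library is 1 mouse.

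Acyl-CoA thioesterases split acyl-CoAs into the free fatty acid and coenzyme A, and so run against the acyl-CoA synthetases that activate fatty acids. Different members sit in the cytosol, the mitochondrial matrix and the peroxisome, and each compartment's pool of acyl-CoA and free CoA is set in part by them. Several genes of the family are known in liver as targets of PPARα, the nuclear receptor of fasting and fatty acid oxidation. The family holds unrelated folds: Acot1 to Acot6 share an alpha/beta hydrolase fold and a gene cluster, whereas Acot7 to Acot13 carry the hotdog fold.

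Total expected counts ran from 17432904 to 25024099 per library. Levels are given as CPM, counts normalized to library size by TMM. Pparg, the gene targeted by the shRNAs, had 16.4, 20.1, 35.9, 19.4 and 32.1 CPM in the 5 Vec mice and 7.31, 6.53, 5.96, 3.24 and 5.63 CPM in the 5 shRNA mice, and the groups did not overlap. It ranged from 28.02 to 38.3 CPM in Vec+BBR and from 7.19 to 21.8 CPM in shRNA+BBR mice, again without overlap. Pparg fell with knockdown in vehicle (log2 −2.12, edgeR adjusted p = 4.47e-05) and under BBR (log2 −1.20, adjusted p = 0.00843) and rose with BBR in shRNA mice (log2 1.28, adjusted p = 0.00773). The markers of hepatocytes (6 genes) summed to between 88300 and 153000 CPM in every library, and in bulk tissue fewer cells of a type and less RNA per cell cannot be told apart. Summed stellate cell markers (7 genes) lay between 172 and 319 CPM in Vec and between 335 and 369 CPM in Vec+BBR mice, and summed cholangiocyte markers (5 genes) between 24.0 and 45.3 and between 50.3 and 96.6 CPM. The hepatocyte sum ran from 121000 to 153000 CPM in Vec and from 88300 to 123000 CPM in Vec+BBR mice. Under both vectors BBR-treated mice also had more of the summed adipocyte markers (5 genes), with at most 0.981 CPM in Vec and shRNA mice, 1.16 to 6.31 CPM in Vec+BBR and 0.867 to 5.45 CPM in shRNA+BBR mice, the ranges being apart between Vec and Vec+BBR and between shRNA and shRNA+BBR. Leptin (Lep) was at 0 in all Vec, shRNA and shRNA+BBR mice, and Plin1 in all Vec and shRNA+BBR mice. Only 1 of the 5 adipocyte markers passed the filter on low counts. The 3 brown adipocyte markers summed to between 22.3 and 72.8 CPM in Vec+BBR and between 12.2 and 34.9 CPM in shRNA+BBR mice, against at most 12.6 CPM in Vec and 1.34 CPM in shRNA mice, while Ucp1, their defining marker, was at 0 in every library. Of the other 2, Cidea and Cox7a1, only 1 passed with BBR under each vector. The smaller of their log2 fold changes with BBR in Vec was 0.74 and the larger 3.63, in order of size and not of gene. The paper measured Cidea among the PPARγ target genes that BBR raised in db/db liver. Summed endothelial markers (6 genes) lay between 77.1 and 102 CPM in Vec and between 110 and 138 CPM in shRNA mice. Summed neuron markers (4 genes) were apart between the same groups, at 12.1 to 18.2 and 7.2 to 11.3 CPM, and summed exocrine pancreas markers (4 genes) between Vec and Vec+BBR mice, at 2.31 to 3.78 and 4.0 to 5.69 CPM. In each of these lists of 4, only 1 gene passed the filter on low counts, so the sums do not show a cell type. The part of any of these in the results below was not tested.

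Acot1 to Acot4 lie side by side on the plus strand of chromosome 12 (GRCm38, GENCODE M21), in the order Acot2 (chr12:83987861-83993873), Acot1 (chr12:84009490-84018371), Acot4 (chr12:84038379-84048601) and Acot3 (chr12:84052144-84060402), followed by Acot5 and Acot6. The coding sequences of Acot1 and Acot2 matched at 1181 of 1236 aligned bases, or 95.6%, with an unbroken identical run of 273 bases. A stretch of 90 coding bases inside 1 exon, chosen as the one with the most differences, is shown because it is the kind of sequence by which reads of the 2 genes can be told apart, and capitals mark the 14 bases that differ (Acot1 at chr12:84016916-84017005, Acot2 at chr12:83992638-83992727, plus strand, from GENCODE M21 transcripts).

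Acot1: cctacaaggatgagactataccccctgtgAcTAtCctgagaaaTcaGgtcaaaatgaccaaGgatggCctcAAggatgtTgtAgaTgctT
Acot2: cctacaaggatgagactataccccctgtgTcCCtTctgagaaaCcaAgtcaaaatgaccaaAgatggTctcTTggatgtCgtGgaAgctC

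Of the 100-base windows of the Acot1 transcript, 21.9% were also found, on either strand, in a transcript of another gene. The share was 17.1% for Acot2, 16.6% for Acot3 and 8.8% for Acot4. All 359 shared windows of Acot2 were found in Acot1. Of the 540 shared windows of Acot4, 539 were found in 4732463B04Rik, an antisense gene that overlaps it, and 21 in Acot3. Those of Acot3 were mostly found in overlapping genes, with 330 in Gm49366 and 214 in 4732463B04Rik, against 104 in Acot1. A window can be found in more than 1 gene. Expected counts divide reads that match several genes, so the split between Acot1 and Acot2 rests in part on that division. The 250 bases upstream of the 2 genes were far less alike, with 109 of 227 aligned bases identical, or 48.0%. That share lay within the 42.6% to 57.9% found over all 45 pairs of upstream sequences of Acot5 and of the 9 members with an entry (median 50.4%). The 100 bases that end 20 bases before each start are shown for that contrast (RefSeq promoters, GRCm38.p6, Acot1 at chr12:84009382-84009481, Acot2 at chr12:83987741-83987840, plus strand).

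Acot1: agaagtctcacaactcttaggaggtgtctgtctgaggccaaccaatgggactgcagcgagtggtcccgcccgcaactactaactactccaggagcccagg
Acot2: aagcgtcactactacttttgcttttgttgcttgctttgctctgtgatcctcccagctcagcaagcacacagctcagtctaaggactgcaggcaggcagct

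The other members lie apart from the cluster: Acot7 and Acot11 on chromosome 4, Acot8 on chromosome 2, Acot9 on the X chromosome, and Acot12 and Acot13 on chromosome 13. Acot9 is 97.2% identical in coding sequence to Acot10, a gene with a single exon that was listed at 0 in all 20 libraries. Acot8 shares 246 exon bases with Snx21 on the opposite strand, Acot11 shares 1263 with Fam151a and Acot12 shares 149 with 4833422C13Rik, and Acot3 and Acot4 share exon bases with the antisense gene 4732463B04Rik (312 and 615) and with Gm49366 on their own strand (396 and 33). The library kit is not stated to keep the strand, so reads from these overlaps could belong to either gene. Fam151a had at most 1 count in any library, Gm49366 had 0 to 52 counts and passed no test, and Snx21 passed none either, with log2 fold changes between −0.28 and 0.08 in the 4 comparisons. The antisense genes 4833422C13Rik and 4732463B04Rik were not among the listed genes, so their overlaps with Acot12, Acot3 and Acot4 could not be looked at.

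PPARs bind a direct repeat of the hexamer AGGTCA with 1 base between the copies, called DR1, so the 300 bases from 250 before to 50 after each start were searched for it on both strands. Among the 32851 RefSeq promoters, 16.3% held the hexamer, 13 held an exact DR1 and 182 (0.554%) held one with at most 1 mismatch, every DR1 being counted among the hexamers when exact. Promoters were found for 9 of the 10 members (none for Acot13), and the hexamer was in those of Acot3, Acot4 and Acot12. No member held an exact DR1, and Acot12 held one with 1 mismatch, shown in capitals in the stretch around it (GRCm38.p6, chr13:91741371-91741443, plus strand).

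Acot12: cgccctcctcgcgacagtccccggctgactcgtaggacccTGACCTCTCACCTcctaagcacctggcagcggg

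This match is a description of letters, and it says nothing of binding. The closest match of Acot4 had 2 mismatches, which 3.86% of all promoters had or bettered, and those of Acot1, Acot2, Acot3, Acot7, Acot8, Acot9 and Acot11 had 3 to 5.

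Levels can be set side by side between genes only per length, and for this the deposited FPKM values were used. In Vec livers the medians were 69.9 FPKM for Acot3 and 67.5 FPKM for Acot13, with overlapping ranges, and these were the most abundant members. Acot12 (34.4 FPKM), Acot4 (30.5 FPKM) and Acot1 (23.5 FPKM) came next and overlapped from one to the next. Acot7 (12.4 FPKM), Acot8 (10.9 FPKM) and Acot2 (6.59 FPKM) formed a lower step, and Acot11 (3.66 FPKM) and Acot9 (1.65 FPKM) were lowest. In Vec the ranges of neighbours in this order were apart at 3 places, between Acot13 and Acot12, between Acot1 and Acot7 and between Acot2 and Acot11, and overlapped at the other 6. In Vec+BBR livers the median of Acot2 was 22.9 FPKM, and Acot2 stood above Acot1 (18.7 FPKM), with overlapping ranges. In shRNA+BBR livers Acot13 had a median of 105.5 FPKM and led the order, overlapping Acot3 at 61.3 FPKM. Acot13 also led in Vec+BBR (92.1 FPKM) and shRNA livers (64.6 FPKM), overlapping Acot3 (86.9 and 56.5 FPKM) in each.

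**Figure D1:**
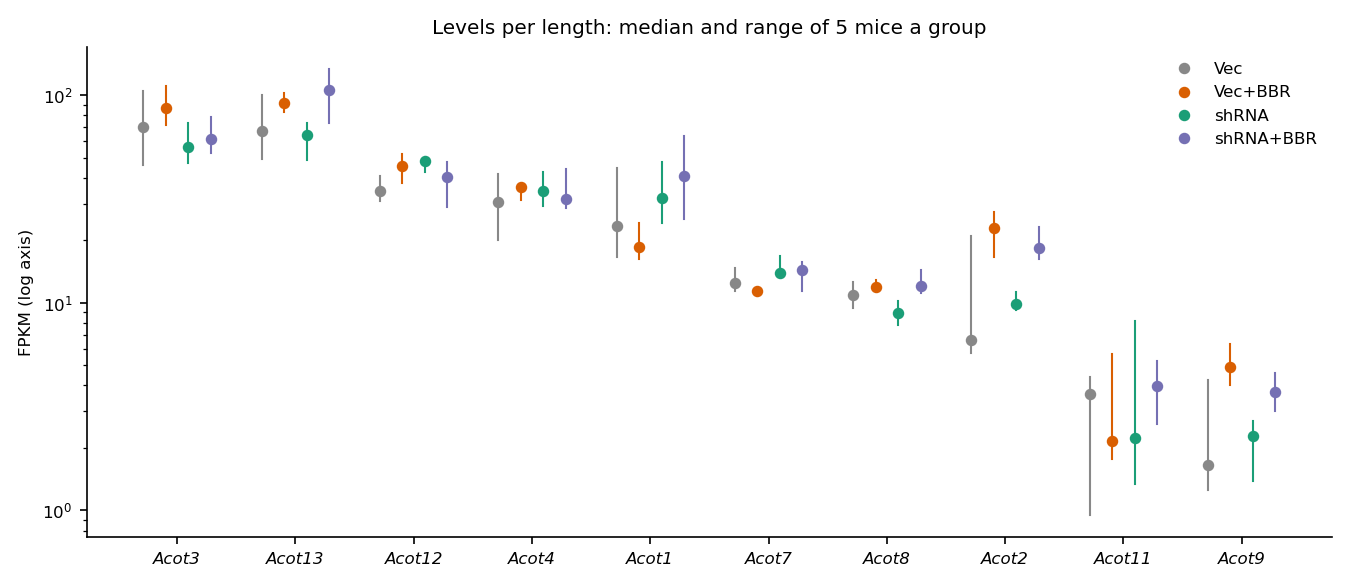
FPKM of the 10 members on a log axis, with the median (point) and the range (line) of the 5 mice of each group, members ordered by their median in Vec. Acot3 and Acot13 are the highest and Acot11 and Acot9 the lowest in Vec, and the Acot2 median is 6.59 FPKM in Vec and 22.9 FPKM in Vec+BBR. The Acot2 means of these groups are 10.9 and 21.7 FPKM, and the 5 Vec mice range from 5.71 to 21.1 FPKM. FPKM were not used to test changes.

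With BBR in Vec mice, 2 members rose (Acot2 and Acot9) and 1 fell (Acot7) at an edgeR adjusted p under 0.05, and 7 did not pass. Over all genes tested, 7.58% rose and 7.88% fell. With BBR in shRNA mice, 4 members rose (Acot2, Acot8, Acot9 and Acot13) and none fell, against 8.37% and 7.28% of all genes. With knockdown in vehicle-treated mice, Acot12 rose and Acot8 fell, against 5.28% and 7.91% of all genes. With knockdown under BBR, Acot1 and Acot7 rose and none fell, against 3.31% and 4.82% of all genes. The groups did not overlap at all for 1 member with BBR in Vec (8.94% of all genes), 1 with knockdown in vehicle (8.96%), 1 with knockdown under BBR (8.48%) and 3 with BBR in shRNA (11.4%). The median log2 fold change of the members was 0.05 with BBR in Vec, 0.15 with BBR in shRNA, −0.09 with knockdown in vehicle and 0.04 with knockdown under BBR, and that of all genes lay between −0.01 and 0.01. Since 1 member is 10% of the 10, a count of 1 is near these shares of all genes. The 4 comparisons share groups and are not independent of one another.

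Whether the change with BBR differed between the vectors was tested as an interaction, which 0.146% of all genes (18 genes) passed in edgeR. None of the 10 members passed, and 3 had an unadjusted p under 0.05: Acot7 (adjusted p = 0.227), Acot8 (adjusted p = 0.136) and Acot12 (adjusted p = 0.105). DESeq2 passed 1 member, Acot12 (adjusted p = 0.0395), among 330 genes, and limma-voom passed none of the members. A change seen with 1 vector and not with the other is therefore not shown to differ between them for the other 9 members, and for Acot12 only by DESeq2. Single members were also compared by a 2-sided exact permutation test of mean CPM, over every assignment of the 10 mice, in 40 tests. The smallest p this design allows is 0.00794, reached in 6 tests, and after Benjamini-Hochberg adjustment it was 0.0529. No member passed by that test. A member whose groups do not overlap cannot pass here by itself, because the adjusted p depends on how many of the 40 tests have a low p. The outcome therefore decides nothing about single members.

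**Figure D2:**
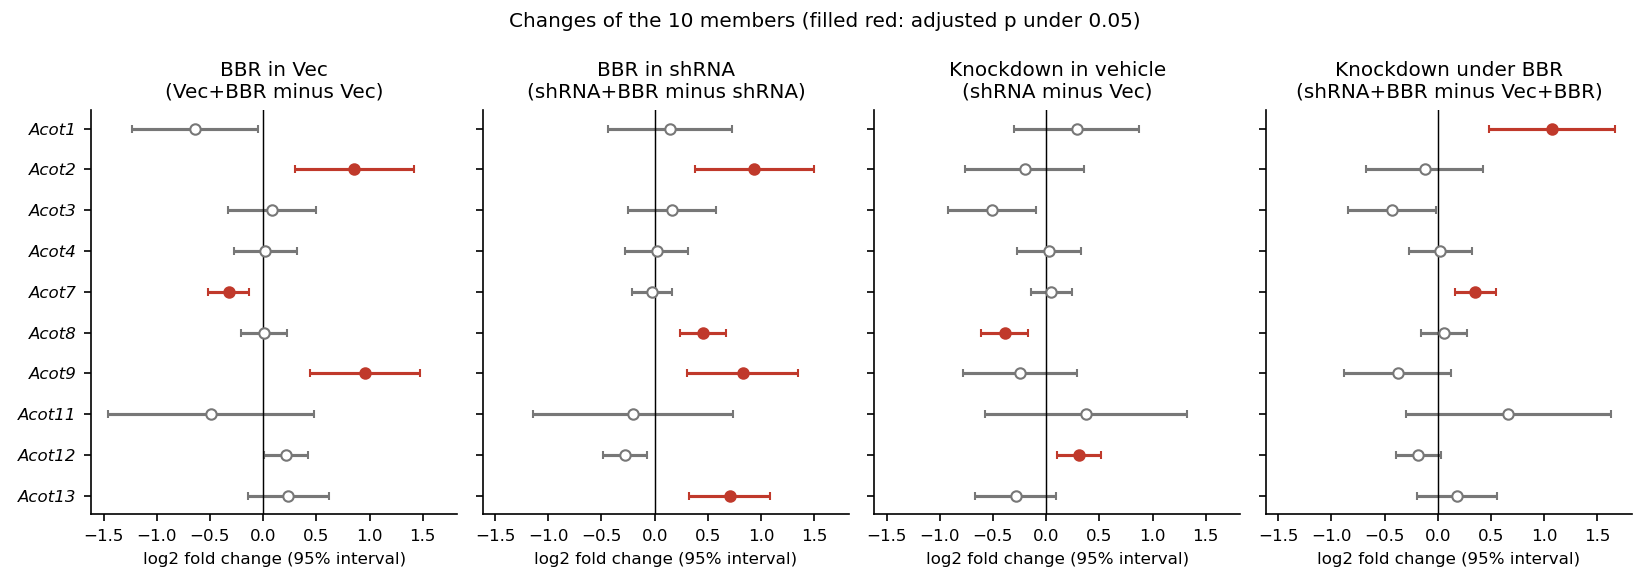
Log2 fold change of each member with its 95% interval in the 4 comparisons, from edgeR, with filled red points for an adjusted p under 0.05. Acot2 and Acot9 are the members that passed with BBR under both vectors, and Acot4 lies within 0.03 of 0 in all 4 comparisons.

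Acot2, Acot9 and Acot13 act in or at mitochondria. Acot2, a long-chain thioesterase of the mitochondrial matrix, had 13.5, 14.4, 49.3, 14.5 and 34.5 CPM in Vec and 38.2, 47.9, 49.8, 56.3 and 36.7 CPM in Vec+BBR mice. Of the Vec mice, 3 lay far below every Vec+BBR mouse, and replicates 3 and 5 lay at 49.3 and 34.5 CPM, so that the groups overlapped through replicate 3. Acot2 rose 1.81-fold (log2 0.85, standard error 0.27, edgeR adjusted p = 0.0353). In the other vector it had 20.8, 19.8, 24.8, 21.1 and 23.5 CPM in shRNA and 49.7, 41.8, 39.0, 45.9 and 34.2 CPM in shRNA+BBR mice, without overlap. There it rose 1.91-fold (log2 0.94, standard error 0.27, edgeR adjusted p = 0.0256). Knockdown itself left values of −0.20 (adjusted p = 0.659) and −0.12 (adjusted p = 0.822) on the log2 scale, neither of which passed. The interaction was 0.08 on the log2 scale (95% interval −0.70 to 0.87). The BBR result in Vec was 1.24 on the log2 scale without Vec replicate 3. It did not pass without Vec replicate 1, 2 or 4 or Vec+BBR replicate 2, 3 or 4 (adjusted p from 0.0684 to 0.102) or in a fit of those groups alone (adjusted p = 0.125). In shRNA it did not pass without shRNA replicate 1, 2 or 4 or shRNA+BBR replicate 3 or 4 (adjusted p from 0.0523 to 0.0551).

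Acot9, another mitochondrial thioesterase, had the lowest median of the members in Vec and followed the same course. It had 3.06, 2.51, 7.94, 2.89 and 5.32 CPM in Vec, 7.44, 9.72, 8.52, 9.73 and 6.97 CPM in Vec+BBR, 4.75, 3.91, 3.46, 3.94 and 2.38 CPM in shRNA and 5.43, 6.71, 7.44, 7.94 and 5.09 CPM in shRNA+BBR mice. Vec replicates 3 and 5 were again the highest of their group, replicate 3 lay inside the Vec+BBR range, and the shRNA and shRNA+BBR groups did not overlap. Acot9 rose 1.94-fold with BBR in Vec (log2 0.95, standard error 0.25, edgeR adjusted p = 0.0133) and 1.77-fold in shRNA (log2 0.83, standard error 0.25, edgeR adjusted p = 0.0328). The first was 1.28 on the log2 scale without Vec replicate 3 and did not pass in a fit of those groups alone (adjusted p = 0.051). The second did not pass without shRNA replicate 2, 3, 4 or 5 or shRNA+BBR replicate 2, 3 or 4 (adjusted p from 0.0535 to 0.0861). In the same comparison of Vec+BBR with Vec, summed stellate and cholangiocyte markers were apart between the groups. The adipocyte sums, in which only 1 of 5 genes passed the filter on low counts, were apart under both vectors. The part of any of these in the Acot9 and Acot2 values was not tested.

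Acot13, a small thioesterase at the outer face of mitochondria that binds the phosphatidylcholine transfer protein Pctp, had 46.7, 34.1, 53.0, 45.7 and 44.6 CPM in shRNA and 59.4, 82.2, 97.9, 75.0 and 50.8 CPM in shRNA+BBR mice. The groups overlapped through the highest shRNA and the lowest shRNA+BBR mouse. Acot13 rose 1.63-fold (log2 0.70, standard error 0.18, edgeR adjusted p = 0.0166), and without shRNA+BBR replicate 3 it did not pass (adjusted p = 0.0606). In Vec mice it ranged from 35.5 to 76.9 CPM and with BBR from 52.6 to 77.2 CPM, a log2 fold change of 0.24 (adjusted p = 0.406). The interaction was 0.47 (95% interval −0.07 to 1.00). Its partner Pctp rose with BBR in Vec (log2 0.57, adjusted p = 0.0387), fell with knockdown under BBR (log2 −0.58, adjusted p = 0.0499) and in the other 2 comparisons had log2 values of −0.48 (adjusted p = 0.0809) and 0.47 (adjusted p = 0.0814).

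Acot1, Acot7, Acot11 and Acot12 are cytosolic. Acot1, a long-chain enzyme known as a target of PPARα, had 33.9, 48.0, 74.1, 51.3 and 95.4 CPM in Vec and 39.5, 38.6, 37.6, 44.5 and 34.1 CPM in Vec+BBR mice. The Vec+BBR values were tightly grouped and all but 1 Vec mouse lay above them. The log2 fold change was −0.64 (95% interval −1.23 to −0.05) and did not pass after adjustment (adjusted p = 0.133). In shRNA mice it had 58.4, 53.3, 88.5, 66.3 and 103.3 CPM, and in shRNA+BBR mice 119.5, 70.6, 42.4, 51.5 and 125.5 CPM, the widest spread of the 4 groups. Under BBR, knockdown mice had 2.11-fold more Acot1 than Vec mice (log2 1.07, standard error 0.29, edgeR adjusted p = 0.0239), with an overlap between 1 shRNA+BBR mouse at 42.4 CPM and 1 Vec+BBR mouse at 44.5 CPM. This result did not pass without Vec+BBR replicate 2, 3 or 5 or shRNA+BBR replicate 1 or 5 (adjusted p from 0.052 to 0.0702), and the last pair are the mice with 119.5 and 125.5 CPM. The interaction was 0.79 on the log2 scale (95% interval −0.04 to 1.62, adjusted p = 0.293).

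Acot1 and Acot2 therefore differed in their course although their coding sequences are nearly the same. Acot2 counts made up 28.5%, 23.1%, 39.9%, 22.0% and 26.6% of the counts of both genes in Vec mice and 49.1%, 55.4%, 57.0%, 55.8% and 51.9% in Vec+BBR mice. The shares were 28% ± 7.15 and 53.8% ± 3.25 (SD, n = 5) and did not overlap. In shRNA mice the share was 23.6% ± 3.45 (SD, n = 5), and in shRNA+BBR mice it ran from 21.4% to 47.9% (36.6% ± 11.4, SD, n = 5), overlapping the shRNA range of 18.6% to 27.0%. The summed level of both genes was 85.8 ± 38.1 CPM in Vec and 84.6 ± 11.3 CPM in Vec+BBR (SD, n = 5). Counted as a single feature, the pair did not pass in any of the 4 comparisons: the log2 fold change was −0.03 with BBR in Vec (adjusted p = 0.953), 0.38 with BBR in shRNA (adjusted p = 0.298), 0.16 with knockdown in vehicle (adjusted p = 0.713) and 0.56 with knockdown under BBR (adjusted p = 0.164). How far the division of shared reads enters these shares was not tested.

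**Figure D3:**
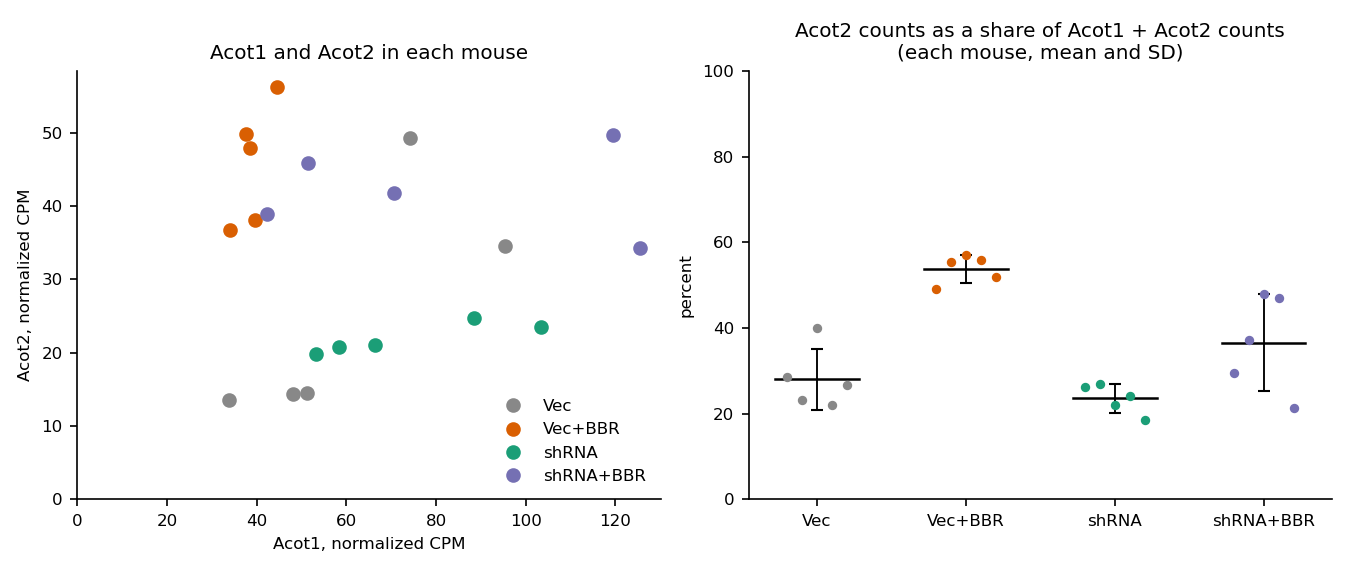
Left, normalized CPM of Acot2 against Acot1 in each of the 20 mice, coloured by group. Right, Acot2 counts as a percentage of Acot1 plus Acot2 counts in each mouse, with the mean (line) and SD (bar) of 5 mice, which is 28% in Vec and 53.8% in Vec+BBR.

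Acot7, a long-chain thioesterase best known from brain, had the lowest ratio of the highest to the lowest FPKM over the 20 mice, 1.55. It had 17.8, 24.6, 19.3, 20.1 and 18.0 CPM in Vec and 16.4, 14.96, 15.8, 15.9 and 16.4 CPM in Vec+BBR mice, and every Vec+BBR mouse lay below every Vec mouse. It fell to 0.798 of the Vec level (log2 −0.33, standard error 0.09, edgeR adjusted p = 0.0213), and without Vec replicate 2, the mouse at 24.6 CPM, the log2 fold change was −0.24 (adjusted p = 0.0756). In shRNA and shRNA+BBR mice it lay between 19.4 and 23.7 CPM and between 16.9 and 22.0 CPM, a log2 fold change of −0.02 (95% interval −0.21 to 0.17). Under BBR, knockdown mice were accordingly 1.28-fold above Vec mice without overlap (log2 0.35, standard error 0.09, edgeR adjusted p = 0.0226). That result did not pass without Vec+BBR replicate 4 or shRNA+BBR replicate 1 or 5 (adjusted p from 0.0502 to 0.0566).

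Acot12 hydrolyses acetyl-CoA in the cytosol and is largely a liver enzyme. It had 101, 121, 105, 123 and 128 CPM in Vec and 130, 143, 143, 148 and 152 CPM in shRNA mice, and all shRNA mice lay above all Vec mice. It rose 1.24-fold with knockdown (log2 0.31, standard error 0.10, edgeR adjusted p = 0.0444), close to the threshold. Without a filter on low counts (adjusted p = 0.0553) it did not pass, nor without Vec replicate 1, 2 or 3, shRNA replicate 2, 3, 4 or 5, Vec+BBR replicate 3, 4 or 5 or shRNA+BBR replicate 4 (adjusted p from 0.0514 to 0.11). The log2 fold change lay between 0.265 and 0.348 in all 28 alternatives run. Summed endothelial and neuron markers were apart between the same groups, with only 1 of the 4 neuron markers past the filter on low counts. Their part in the Acot12 and Acot8 values was not tested. With BBR the values were 121, 140, 138, 139 and 133 CPM in Vec+BBR and 142, 92.1, 105, 122 and 131 CPM in shRNA+BBR mice. The change with BBR was 0.21 on the log2 scale in Vec (95% interval 0.01 to 0.42, adjusted p = 0.154) and −0.28 in shRNA mice (95% interval −0.48 to −0.07, adjusted p = 0.0624), which passed by DESeq2 (adjusted p = 0.0366) and without shRNA+BBR replicate 1 or 5 (adjusted p = 0.0228 and 0.0405). The interaction was −0.49 (standard error 0.14, edgeR adjusted p = 0.105).

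Acot11, a thioesterase with a lipid-binding START domain that is prominent in brown fat, had the highest ratio of the highest to the lowest FPKM, 8.57. It ranged from 4.16 to 17.5 CPM in Vec (median 15.5), from 6.63 to 13.9 CPM in Vec+BBR (median 7.14), from 4.43 to 29.3 CPM in shRNA (median 8.98) and from 9.57 to 16.2 CPM in shRNA+BBR mice (median 15.8). All 4 ranges overlapped, and Acot11 passed in no comparison (edgeR adjusted p from 0.398 to 0.78). Its intervals were wide, from −1.46 to 0.48 on the log2 scale with BBR in Vec and from −0.57 to 1.32 with knockdown in vehicle.

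Acot3, Acot4 and Acot8 are peroxisomal. Acot8, which acts on a broad range of acyl-CoAs including those of bile acid synthesis, had 13.3, 14.0, 14.5, 10.7 and 14.7 CPM in Vec and 8.91, 11.3, 11.8, 9.38 and 10 CPM in shRNA mice. The lowest Vec mouse, replicate 4, lay within the shRNA range. Acot8 fell to 0.764 of the Vec level with knockdown (log2 −0.39, standard error 0.11, edgeR adjusted p = 0.0187), and did not pass without shRNA replicate 1 or 4 (adjusted p = 0.0548 and 0.0567) or in a fit of those groups alone (adjusted p = 0.0503). With BBR in shRNA mice it had 16.0, 14.1, 13.9, 12.6 and 13.7 CPM, above every shRNA mouse. It rose 1.37-fold (log2 0.45, standard error 0.11, edgeR adjusted p = 0.0106) and passed in all 28 alternatives run. In Vec mice the change with BBR was 0.01 (95% interval −0.21 to 0.22), and the interaction was 0.45 (standard error 0.15, edgeR adjusted p = 0.136).

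Acot3, a long-chain enzyme, was lower in knockdown mice in both comparisons without passing. It had 108, 235, 144, 146 and 226 CPM in Vec and 115, 96.2, 155, 99.5 and 140 CPM in shRNA mice, a log2 fold change of −0.51 (95% interval −0.92 to −0.09, adjusted p = 0.0963). It passed without Vec replicate 1 (log2 −0.64, adjusted p = 0.0387). Under BBR the log2 fold change was −0.43 (adjusted p = 0.189), and the groups overlapped in both. Acot4, which prefers succinyl-CoA, showed log2 fold changes of 0.02, 0.03, 0.03 and 0.02 in the 4 comparisons, with 95% intervals no wider than −0.28 to 0.33. Its group means were 207 ± 48.0, 210 ± 13.9, 211 ± 32.3 and 214 ± 33.7 CPM (SD, n = 5) in Vec, Vec+BBR, shRNA and shRNA+BBR mice.

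**Figure D4:**
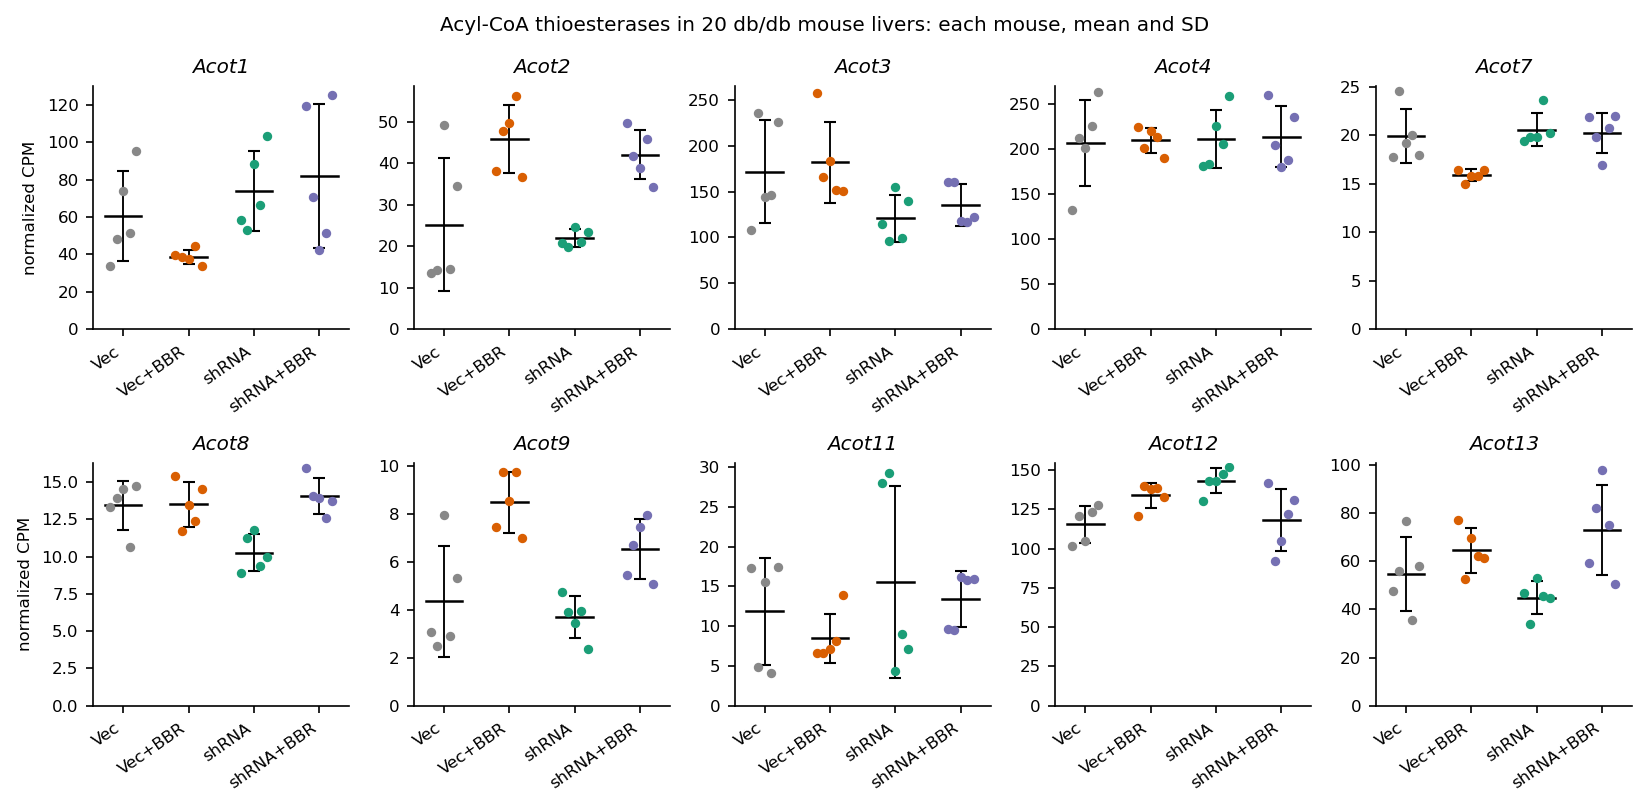
Normalized CPM of each of the 10 members in every mouse by group, with the group mean (line) and SD (bar, n = 5) and each panel's axis starting at 0. The Vec+BBR mice lie below all Vec mice for Acot7, the shRNA+BBR mice lie above all shRNA mice for Acot2, Acot8 and Acot9, and 2 of the 5 Vec mice stand above the other 3 for Acot2.

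Across the 20 libraries, Acot2 and Acot9 had a Pearson correlation of log2 CPM of 0.896, the highest of the 45 pairs of members, whereas Acot1 and Acot2 had one of 0.062. The points share libraries and depth, and the correlations are descriptions. Differences between groups were not removed, and Acot2 and Acot9 both rose with BBR under both vectors. Outside the family, the gene most like Acot2 was Pex11a (0.964), which takes part in the division of peroxisomes, followed by Slc39a5 (0.937) and Cbfa2t3 (0.933). Pex11a had log2 fold changes of 0.61 with BBR in Vec and 0.67 in shRNA mice. It was picked for its likeness to Acot2 over these same libraries, so these changes are no separate support. Acot9 was nearest to Uap1l1 (0.951), Anxa2 (0.947) and Dpp7 (0.945), and Acot13 to Ppia (0.932), Dbi (0.926), the acyl-CoA binding protein, and Myl6 (0.912). Acot1 was nearest to Mtfp1 (0.918) and Fpgs (0.811), Acot8 to Mrpl49 (0.885) and Rtp3 (0.837), Acot12 to Zfp664 (0.912), Galnt2 (0.911) and Tspyl1 (0.909), and Acot7 to Thnsl2 (0.836) and Rbpms2 (0.828). The nearest genes to Acot3, Acot4 and Acot11 were Nptxr (0.805), Aasdh (0.807) and Kpna2 (0.751).

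Of 12 other thioesterase genes, 9 were tested, and Acot10, Olah and Them5 were not. With BBR in Vec, 3 rose and none fell, against 7.58% and 7.88% of all genes. Acot5, the peroxisomal neighbour of Acot3, rose from 0, 0.514, 1.57, 0.254 and 1.55 CPM in Vec to 2.31, 2.42, 2.38, 1.61 and 2.73 CPM in Vec+BBR mice (log2 1.52, adjusted p = 0.039). These are low levels, and 1 Vec library had no count. Mblac2 (log2 0.51, adjusted p = 0.0393) and Acot6 (log2 0.44, adjusted p = 0.0435) were the others. Acot6, a further peroxisomal member of the cluster, had 5.06 to 7.58 CPM in Vec and 2.97 to 5.04 CPM in shRNA mice and fell with knockdown in vehicle (log2 −0.57, adjusted p = 0.0147) and under BBR (log2 −0.63, adjusted p = 0.0113), without overlap in either. Ppt1, a lysosomal thioesterase, rose with knockdown in vehicle (log2 0.43, adjusted p = 0.0075), and Them4 rose with knockdown under BBR (log2 0.56, adjusted p = 0.0162). With BBR in shRNA mice none of the 9 passed, with 4 at an unadjusted p under 0.05.

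The acyl-CoA synthetases, which run the opposite reaction, split by direction with BBR in Vec. Of 14 tested, Acsl3, Acsl4 and Slc27a4 rose (log2 0.69, 0.65 and 0.51), and Slc27a5, Acsm1 and Acsm2 fell (log2 −0.75 and −0.70 for the first pair). In that comparison 7.58% of all genes rose and 7.88% fell. Acsm2 lay near the detection limit, at 0.321 to 0.752 CPM in Vec and 0.0446 to 0.214 CPM in Vec+BBR mice, and no fold is given for it. With BBR in shRNA mice Slc27a4 (log2 0.75) and Acsl1 (log2 0.45) rose and Slc27a5 (log2 −0.56) and Acsm5 (log2 −0.50) fell. Knockdown lowered Slc27a4 in vehicle-treated mice (log2 −0.63, adjusted p = 0.00461), and none passed under BBR, with 4 at an unadjusted p under 0.05. Among 11 genes of CoA supply and breakdown, Pank2 rose (log2 0.22) and Pank4, Nudt19, a peroxisomal CoA diphosphatase, and Slc25a42, the mitochondrial CoA carrier, fell with BBR in Vec (log2 −0.53, −0.37 and −0.36). Pank3, a pantothenate kinase, rose with BBR in shRNA mice (log2 0.44, adjusted p = 0.0239), Slc25a42 and Ppcs fell with knockdown in vehicle, and none passed under BBR, with 3 at an unadjusted p under 0.05.

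Of 15 tested PPARα target genes, 3 rose and 1 fell with BBR in Vec, against 7.58% and 7.88% of all genes. With BBR in shRNA mice 6 rose and none fell, against 8.37% and 7.28%. With knockdown in vehicle 6 fell and none rose, against 7.91% and 5.28%. Under BBR, knockdown lowered 2 and raised none, against 4.82% and 3.31%. The genes did not move as one: with BBR in Vec, 10 had a log2 fold change above 0 and 5 below, from −0.51 to 0.81. Vnn1, a pantetheinase that breaks down the CoA precursor pantetheine, rose with BBR in Vec (log2 0.81) and in shRNA mice (log2 1.17) and fell with knockdown in vehicle (log2 −1.23) and under BBR (log2 −0.87). Of 7 regulators and partners, Pparg and Pctp passed as given above, and Rxra, which pairs with the PPARs on DNA, fell with BBR in shRNA mice (log2 −0.43, adjusted p = 0.0441). Ppara itself passed in no comparison, with log2 fold changes from −0.90 to 0.15 (adjusted p from 0.12 to 0.932).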

How the data were processed

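Polyadenylated liver RNA of 20 mice was sequenced on an Illumina NovaSeq from NEBNext Ultra libraries. Per library, the deposited values are the expected count of every gene, in which a read matching several genes is shared among them, and its FPKM, scaled by the authors for length and depth. The build in the submitters' notes is mm10, and the aligner and the counting program are not given in the sources used here. Groups were taken from the treatment labels, which name no vector, and the vectors were taken from the paper's methods.

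Expected counts were rounded to whole numbers and filtered with filterByExpr (minimum count 10, minimum total 15), leaving 12342 genes. They were scaled by TMM (factors 0.873 to 1.141) and tested with edgeR 4.0.16 (R 4.3.3), the quasi-likelihood test on all 20 libraries with a mean for each of the 4 groups. P-values were adjusted by Benjamini-Hochberg over all genes tested, with a threshold of 0.05 (biological coefficient of variation 0.177, prior degrees of freedom 4.88). CPM are TMM-scaled. The study's methods name limma and edgeR for comparing pairs of groups. The standard error was derived from the test, as the absolute log2 fold change divided by the square root of the F statistic. 95% intervals are the log2 fold change plus or minus the t quantile times that standard error. The same degrees of freedom were used for every gene, so the intervals are approximate. Intervals and p-values measure the spread between mice. DESeq2 1.42.0 and limma 3.58.1 served as alternatives, as did size factors of DESeq2, other filters, a fit of only the groups compared, a replicate block, summed counts of near-identical genes and leaving out each library. No library pair within a group was a duplicate (chi-square per gene at least 15.2 over 40 pairs).

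Positions and transcripts are those of GENCODE M21 (GRCm38) and promoters those of RefSeq (GRCm38.p6). Coding sequences were aligned with Biopython 1.88, using the longest coding transcript of each gene. All 10 members are named. Genes of the other lists are named where they passed, and for likeness the genes among the 3 with the highest correlation of log2 CPM are given, and some named by these rules are not reported here. The members and the lists were chosen with earlier results of these data known. FPKM values were used for levels only. Detection was limited to about 3 counts, or 0.12 to 0.172 CPM.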

Additional observations from a re-analysis of the deposited data

Results flagged for a closer look

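Of 40 sets of 5 mice (10 members in 4 groups), 2 held a mouse whose gap to its nearest neighbour took up more than 0.71 of the range of the set, Dixon's limit for 5 values. Chance alone flags about 1 such set in 20. Acot7 was highest in shRNA replicate 4, at 23.7 CPM, while the other 4 shRNA mice lay between 19.4 and 20.3 CPM. Acot11 was highest in Vec+BBR replicate 5, at 13.9 CPM, while the other 4 Vec+BBR mice lay between 6.63 and 8.17 CPM. No comparison of shRNA mice passed for Acot7, and none of Vec+BBR mice for Acot11.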

How the results depend on the processing

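Each of the 50 changes (10 members, 5 comparisons) was recomputed under up to 28 alternatives, 1385 values in all. Of these, 1282 kept the direction and the side of the threshold, 47 no longer passed, 5 newly passed and 51 changed sign, and the sign changes were all in changes that had not passed. In a fit of only the groups compared, 1 member and 1178 genes passed with BBR in Vec and 1 member with knockdown in vehicle. Without a filter on low counts 1 member passed with knockdown in vehicle. With the near-identical pairs summed 1 member passed with knockdown under BBR. For the interaction, DESeq2 passed 1 member and 330 genes, and limma-voom passed 11 genes against 18. The cause of these differences was not tested, apart from the smaller number of samples or the summed counts by construction.

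With a replicate block, 1 member passed with knockdown in vehicle instead of 2 (Acot12, adjusted p = 0.0548), and the other members kept their calls. The replicate numbers did not pair the mice: of 5 numbers, at most 3 had a correlation over 0.1 in any pair of groups.

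With 1 library left out at a time, the numbers of members and of all genes that passed ranged from 1 to 3 and from 1237 to 2395 with BBR in Vec, from 0 to 2 and from 1015 to 2284 with knockdown in vehicle, from 0 to 2 and from 538 to 1217 with knockdown under BBR, and from 1 to 5 and from 661 to 2527 with BBR in shRNA. For the interaction, 5 to 122 genes passed. The lowest and highest counts of all genes came without Vec replicates 2 and 3 (BBR in Vec), shRNA replicate 4 and Vec replicate 4 (knockdown in vehicle), shRNA+BBR replicate 2 and Vec replicate 4 (knockdown under BBR), shRNA+BBR replicates 3 and 5 (BBR in shRNA), and Vec+BBR replicate 4 and Vec replicate 4 (interaction).

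Changes of sign by limma-voom gave 0.003 for Acot2 with knockdown in vehicle, 0.186 for Acot11 with BBR in shRNA and −0.116 for the Acot2 interaction. The Acot4 interaction was 0.002 with size factors of DESeq2 and by DESeq2, 0.011 with at least 10 counts in every library and 0.013 with the pairs summed, where Acot8 with BBR in Vec was −0.002. Without single libraries the log2 fold change with BBR in Vec ran from −0.084 to 0.218 (Acot3), −0.116 to 0.121 (Acot4) and −0.067 to 0.043 (Acot8). With knockdown in vehicle it ran from −0.363 to 0.188 (Acot2), −0.10 to 0.128 (Acot4), −0.005 to 0.145 (Acot7) and −0.374 to 0.084 (Acot9), and with knockdown under BBR from −0.056 to 0.093 (Acot4). With BBR in shRNA it ran from −0.061 to 0.313 (Acot1), −0.064 to 0.102 (Acot4), −0.056 to 0.037 (Acot7) and −0.446 to 0.149 (Acot11). The interaction ran from −0.294 to 0.257 (Acot2), −0.066 to 0.253 (Acot3) and −0.104 to 0.139 (Acot4).

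The order of the members by level per length exchanged 2 members in each of Vec, shRNA and shRNA+BBR when TMM-scaled CPM over the length implied by FPKM was used, and none in Vec+BBR. The precision was set by the spread among 5 mice a group, with a standard error of 0.09 for Acot7 and of 0.47 for Acot11 with BBR in Vec.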
